A study of Canis lupus familiaris with 10 samples.

Results

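The 9 genes described here encode guidance proteins of the semaphorin and ephrin families. They are SEMA3C, SEMA4A, SEMA4B, SEMA5A, SEMA5B, SEMA6C and SEMA6D, the ephrin ligand EFNB2 and the Eph receptor EPHB2, and they were taken from 19856 genes listed in the count tables. The members were chosen by their change in this same experiment, since all of them stand in the study's list of differentially expressed genes, so the differences between Post-ACTH and Pre-ACTH below are descriptions and carry no p-value. Visceral adipose tissue (VAT) came from 5 adult Beagle dogs, 3 males and 2 females, each sampled by laparotomy 2 times, ahead of treatment (Pre-ACTH) and after 25 weeks of it (Post-ACTH). During those weeks tetracosactide, a synthetic analog of ACTH that drives cortisol secretion, was released from osmotic pumps under the skin of the neck. The daily dose began at 1.3 to 1.95 μg/kg and ended at 6 to 10 μg/kg, with new pumps every 4 weeks. No untreated dogs were followed over the same time, so treatment cannot be told apart from age, from the repeated laparotomy or from the time between samplings. The 10 RNA-seq libraries formed 5 within-dog pairs and held 8728330 to 14867529 reads assigned to genes in Pre-ACTH and 12314258 to 14589329 in Post-ACTH, the smallest being the Pre-ACTH library of dog 3. Levels are given as normalized counts, that is, reads scaled for library size and composition by edgeR's TMM factors, and they serve to compare samples for 1 gene and not genes with each other, since no transcript lengths were used.

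Semaphorins were first described as cues that repel or attract growing axons, and they also act on vessels, immune cells and stromal cells. Class 3 members are secreted and bind neuropilins, which signal together with plexins, whereas members of classes 4 to 6 span the membrane and mostly bind plexins directly. Ephrins are bound to the cell surface and signal by contact with Eph receptor tyrosine kinases on the neighbouring cell, and an ephrin-B can itself signal back into the cell that carries it. In vessels, ephrin-B2 is known as a mark of arterial endothelium.

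In Post-ACTH 8 members were lower than in Pre-ACTH and 1, SEMA4B, was higher. All 9 members changed in the same direction in all 5 dogs, which held for 26.9% of the 13577 genes tested. The Pre-ACTH and Post-ACTH values did not overlap for 6 members (SEMA4A, SEMA5B, SEMA6C, SEMA6D, EFNB2 and EPHB2), against 9.04% of all genes tested. Over the members the median log2 fold change was -0.71, and over all genes tested it was -0.0021. A log2 fold change below 0 was found for 50.3% of all genes tested. Because the contrast chose the genes, nothing is read from these shares.

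**Figure D1:**
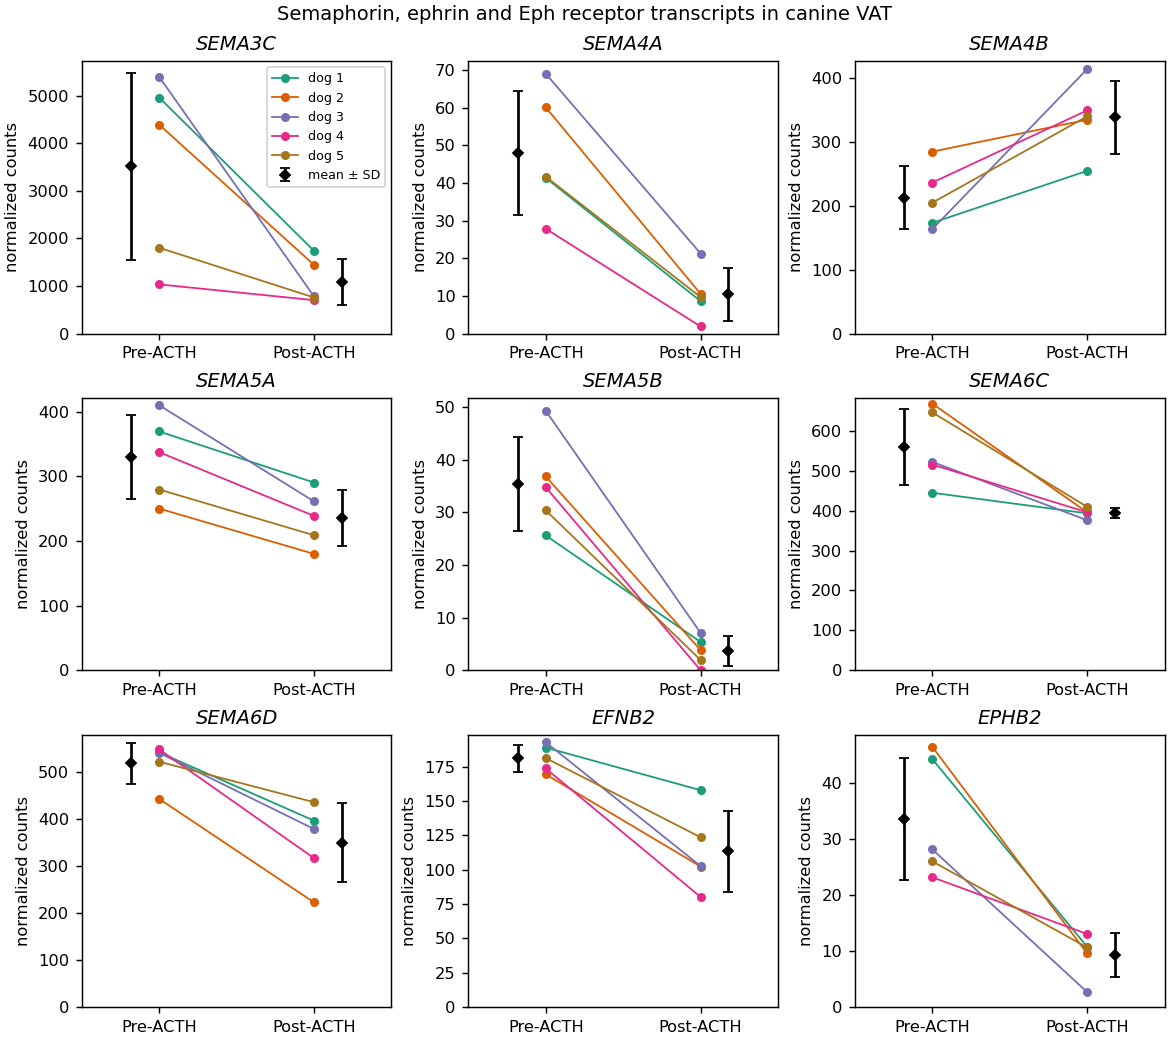
Normalized counts (y axis, starting at 0, a scale of its own for each gene) of the 9 members in the Pre-ACTH and Post-ACTH sample of each dog, joined by a line per dog, with the group mean ± SD (n = 5) as black diamonds. SEMA4B is the only panel whose 5 lines go up, and the 5 Post-ACTH values of SEMA6C lie between 376 and 410.

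SEMA3C is the only secreted semaphorin among the members, and the protein has been described as a product released by fat tissue. Its transcript was at 4959.5 normalized counts in dog 1, 4389.9 in dog 2, 5394 in dog 3, 1033 in dog 4 and 1803 in dog 5 in Pre-ACTH. In Post-ACTH the values were 1736, 1441, 778, 701 and 756 for the same dogs. The groups overlapped, because the Pre-ACTH level of dog 4 lay below the Post-ACTH levels of dogs 1 and 2. Before treatment dogs 1, 2 and 3 stood far above dogs 4 and 5, and afterwards dog 3 lay beside dogs 4 and 5. The mean went from 3516 ± 1967 to 1082 ± 474 normalized counts (SD, n = 5), 30.8% of the level before treatment, and the log2 fold change was -1.54. Within single dogs the log2 ratio was lowest in dog 3 (-2.79) and highest in dog 4 (-0.56), with an SD of 0.81.

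The class 4 semaphorins SEMA4A and SEMA4B went opposite ways. SEMA4A, a membrane protein of antigen-presenting cells that acts on T cells, was at 41.4, 60.1, 69.0, 27.8 and 41.7 normalized counts in dogs 1 to 5 in Pre-ACTH and at 8.60, 10.5, 21.2, 1.86 and 9.66 in Post-ACTH. The groups did not overlap, and dog 3 was highest and dog 4 lowest in both. The mean went to 21.6% of its starting level, from 48.0 ± 16.4 to 10.4 ± 6.97 (SD, n = 5), with a log2 fold change of -2.32. These values rest on 24 to 62 reads per library in Pre-ACTH and 2 to 24 in Post-ACTH. In dog 4, with 24 and 2 reads, the transcript was 14.9-fold lower, with an exact 95% interval of 3.71 to 130 that covers counting error only.

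SEMA4B was at 173, 285, 163, 236 and 205 normalized counts in dogs 1 to 5 before treatment and at 255, 335, 414, 349 and 340.1 after it. The Post-ACTH value of dog 1 lay below the Pre-ACTH value of dog 2, so the groups overlapped. Its mean went from 213 ± 49.5 to 339 ± 56.7 (SD, n = 5), 1.59-fold, and the log2 fold change was 0.68. Dog 3, the lowest before treatment, was the highest after it and had the largest log2 ratio, 1.33, while dog 2 had the smallest, 0.23. Within each dog the log2 ratio of SEMA4B exceeded that of SEMA4A by 2.54 to 3.51, on average by 2.84 ± 0.40 (SD, n = 5). Log2 ratios of single dogs include a prior count of 2, which shrinks those of low-count genes. In dog 4 SEMA4A thus entered at -2.95, and SEMA5B and EPHB2 below are affected likewise.

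Class 5 semaphorins carry thrombospondin type 1 repeats beside the semaphorin domain. SEMA5A was at 369, 249.96, 409.8, 337 and 279 normalized counts in dogs 1 to 5 in Pre-ACTH and at 290.2, 179.8, 261, 239 and 209 in Post-ACTH. The order of the dogs was nearly kept, so that the groups overlapped although each dog was lower after treatment. The within-dog log2 ratio lay between -0.65 and -0.35, the narrowest spread of the 9 members (SD 0.11), and the log2 fold change was -0.48.

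SEMA5B had the lowest log2 fold change of the members, -3.33, which placed it at rank 41 from the lowest among all genes tested. Its normalized counts were 25.6, 36.8, 49.3, 34.8 and 30.4 in dogs 1 to 5 before treatment and 5.37, 3.83, 7.08, 0 and 1.93 after it, without overlap. The reads behind them numbered 26 to 38 in Pre-ACTH and 0 to 8 in Post-ACTH. With no read in the Post-ACTH library of dog 4, a floor of 3 reads in that library puts its level there at under 2.80 normalized counts. Against the 30 Pre-ACTH reads of dog 4, taken as exact, that is at least 12.4-fold lower. Counting error of those 30 reads is left out, unlike in the interval given next for dog 5. Dog 5 had 35 and 2 reads, a 15.7-fold difference with an exact 95% counting interval of 4.04 to 135. The mean went from 35.4 ± 8.90 to 3.64 ± 2.79 (SD, n = 5), the latter with dog 4 entered at 0. The log2 ratio of SEMA5A exceeded that of SEMA5B in all 5 dogs, by 1.56 to 2.62 in the 4 dogs with reads of SEMA5B in both libraries.

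The class 6 semaphorins, which bind A-type plexins, had the smallest differences beside SEMA5A. SEMA6C was at 445, 669, 522, 516 and 647 normalized counts in Pre-ACTH and at 393, 396, 376, 396 and 409.6 in Post-ACTH, dogs 1 to 5 in that order. The Post-ACTH values were closely spaced and lay below every Pre-ACTH value. SEMA6D was at 541, 442, 539, 547 and 521 before treatment and at 396, 222, 378, 316 and 435 after it, with dog 2 lowest in both groups. Log2 fold changes were -0.49 for SEMA6C and -0.60 for SEMA6D, and the within-dog difference between them, 0.11 ± 0.31 (SD, n = 5), was smaller than its spread between dogs.

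Secreted and membrane semaphorins were set side by side within each dog, as the log2 ratio of SEMA3C minus the median log2 ratio of the 6 membrane members. This difference was -1.12 in dog 1, -0.74 in dog 2, -2.21 in dog 3, 0.08 in dog 4 and -0.71 in dog 5. SEMA3C therefore lay below the membrane median in 4 of 5 dogs, and in dog 4, whose SEMA3C level was lowest before treatment, it lay just above. The mean difference was -0.94 ± 0.84 (SD, n = 5), little more than its spread between dogs, and it was -0.62 without dog 3. The median of the membrane members itself was -0.60 ± 0.17 (SD, n = 5). The membrane members did not move as a block: their log2 ratios ran from -2.03 to 0.55 in dog 1 and from -2.50 to 1.33 in dog 3. By these ratios SEMA4A and SEMA5B were more strongly lowered than SEMA3C in dogs 1, 2, 4 and 5, and SEMA6D was so in dog 4 as well. No membrane member was so in dog 3, but there the prior count shrinks SEMA5B, with 35 and 8 reads, to -2.50. In normalized counts, which have no prior count, SEMA5B of dog 3 went from 49.3 to 7.08 and SEMA3C from 5394 to 778. The 2 were thus lowered about equally in that dog. With 1 secreted member, the comparison is of 1 gene with 6 and not of classes.

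**Figure D2:**
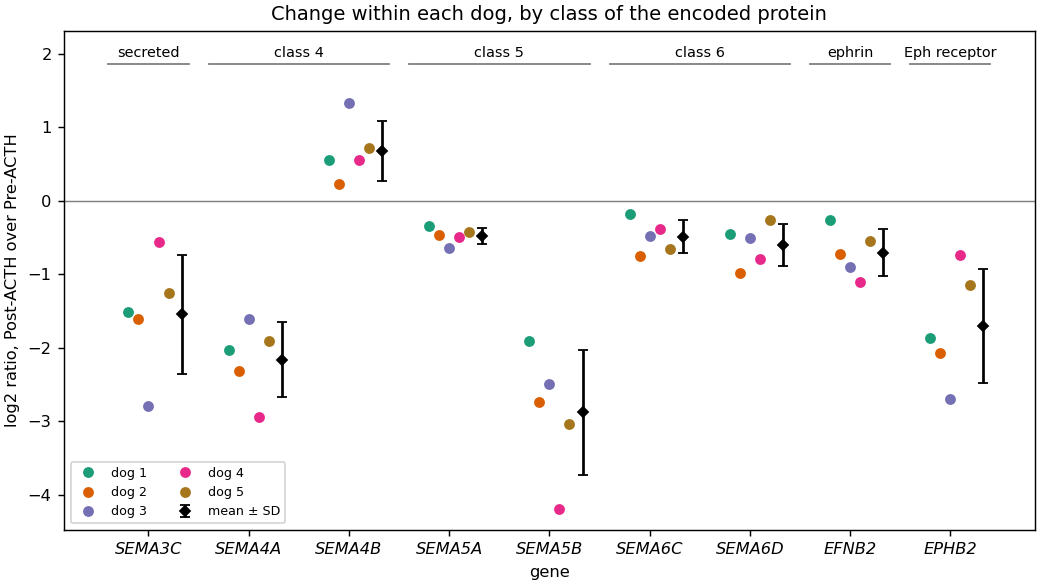
Log2 ratio of Post-ACTH over Pre-ACTH within each dog (y axis, log2 CPM with a prior count of 2) for each member (x axis), grouped by the class of the encoded protein, with the mean ± SD over 5 dogs as black diamonds. The point of SEMA5B in dog 4 has no Post-ACTH read and its place is set by the prior count. SEMA4B lies above 0 in all dogs, SEMA5A is tightly spaced around -0.48, and dog 3 is lowest and dog 4 highest for SEMA3C and EPHB2.

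EFNB2 and EPHB2 encode a ligand and a receptor that can bind each other, and both were lower in Post-ACTH without overlap of the groups. EFNB2 was at 189, 169.5, 193, 174 and 181 normalized counts in dogs 1 to 5 before treatment and at 158, 102, 103, 80.1 and 124 after it. The coefficient of variation (SD over mean) was 5.44% in Pre-ACTH and 25.9% in Post-ACTH, where dog 1 was highest and dog 4 lowest. The log2 fold change of EFNB2 was -0.71. EPHB2 was at 44.3, 46.5, 28.2, 23.2 and 26.0 in Pre-ACTH and at 10.7, 9.57, 2.65, 13.0 and 10.6 in Post-ACTH, from 20 to 48 and from 3 to 14 reads per library. Dog 3 was the lowest after treatment, with 20 reads before and 3 after, a 10.6-fold difference with an exact 95% counting interval of 3.15 to 55.8. The log2 fold change of EPHB2 was -1.86, and its log2 ratio was below that of EFNB2 in 4 of 5 dogs, by 1.00 ± 0.88 on average (SD, n = 5). Dog 4 was the exception, with the largest decrease of EFNB2 (-1.10) and the smallest of EPHB2 (-0.74).

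Dog 3 had the largest change of 4 members (SEMA3C, SEMA4B, SEMA5A and EPHB2), dog 4 of SEMA4A and EFNB2, and dog 2 of the class 6 pair, with few reads behind SEMA4A and EPHB2. SEMA5B was not ranked, since dog 4 had no read of it in Post-ACTH. Dog 1 had the smallest change of SEMA5A, SEMA6C and EFNB2. The median size of the log2 ratio over the 9 members ranged from 0.55 in dog 1 to 1.33 in dog 3, while over all genes tested it ranged from 0.25 to 0.34. The members were chosen by their change, so a larger size was given by that choice. Changes in the spread between dogs went both ways. The coefficient of variation of SEMA6C went from 16.9% to 3.04% and that of SEMA3C from 55.9% to 43.8%, whereas that of SEMA6D went from 8.43% to 23.8% and that of SEMA5B from 25.2% to 76.5%. The spread of the low-count genes SEMA4A, SEMA5B and EPHB2 in Post-ACTH includes counting error from libraries with 0 to 24 reads.

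**Figure D3:**
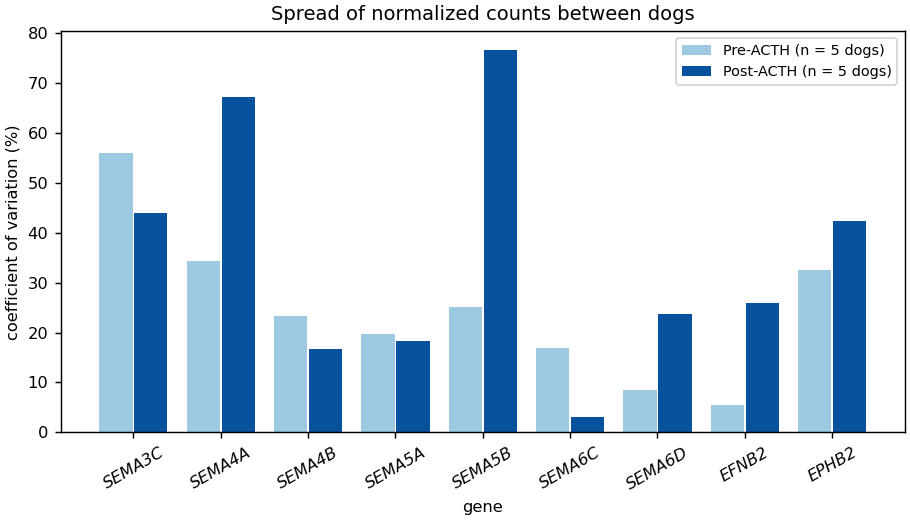
Coefficient of variation of the normalized counts between dogs (y axis, SD as a percentage of the mean) for each member (x axis) in Pre-ACTH (light bars) and Post-ACTH (dark bars), n = 5 dogs each. EFNB2 was the least variable member before treatment, at 5.44%, and SEMA6C after it, at 3.04%.

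In the fit across all genes (edgeR's quasi-likelihood test blocked by dog, Benjamini-Hochberg FDR under 0.01), 1 of the 9 members was called, SEMA4A. This fit called 1.97% of all genes tested, 0.751% as higher and 1.22% as lower. All 9 members passed FDR under 0.05, as did 11.1% of all genes tested. Without the dog as a block SEMA5B was called in place of SEMA4A, and no member was called when any single dog was left out. DESeq2 called 8 members (all but SEMA5A), and 1174 of the 13577 genes tested. As the study's own test on these libraries chose the genes, the counts give no independent evidence of a change.

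Of 89 genes in the lists of semaphorins, their receptors and effectors, ephrins, Eph receptors, slits, robos and netrins, 18 could be matched to a symbol, the 9 members and 9 others. All 9 others were also on the study's list, so their direction is likewise not independent evidence. Receptors such as NRP1, NRP2, PLXND1 and PLXNA1, which bind the semaphorins above, the receptor EPHB4 and the ligands EFNB1 and EFNB3 had no symbol in the sources used here and were not analysed. The 1 semaphorin receptor that could be followed was PLXNB3, the plexin that binds SEMA5A, with 115 ± 55.8 normalized counts before treatment and 52.6 ± 8.29 after it (SD, n = 5), a log2 fold change of -1.03 and overlapping groups.

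Among the 9 others, 5 were called at FDR under 0.01 in the fit named above, 4 lower and 1 higher. Over all genes tested the shares called were 1.97%, 1.22% lower and 0.751% higher. Since the 9 came from the study's list, nothing is read from the difference. None of the 5 was called when dog 2, dog 3 or dog 5 was left out. SLIT2 and SLIT3, secreted ligands of the ROBO receptors, went from 2739 ± 1115 to 727 ± 130 and from 1183 ± 363 to 395 ± 66.6 normalized counts (SD, n = 5). SRGAP1, which acts below the slit receptors, went from 234 ± 31.0 to 113 ± 13.8, and DPYSL3, a collapsin response mediator protein that links semaphorin signals to the cytoskeleton, from 5281 ± 435 to 2749 ± 303. The called gene that was higher was MICAL3, a monooxygenase of the family that acts on actin downstream of plexins, with 1449 ± 57.8 before and 2398 ± 531 after treatment. PLXNB3 and the remaining 3 were not called. SRGAP3 had a log2 fold change of -1.81 and RGMA, a membrane-anchored ligand of neogenin, 0.66, each in the same direction in all 5 dogs. SLIT1 had -2.49, but dog 5 went the other way, from 14 to 23 reads, while the other 4 dogs were lower.

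**Figure D4:**
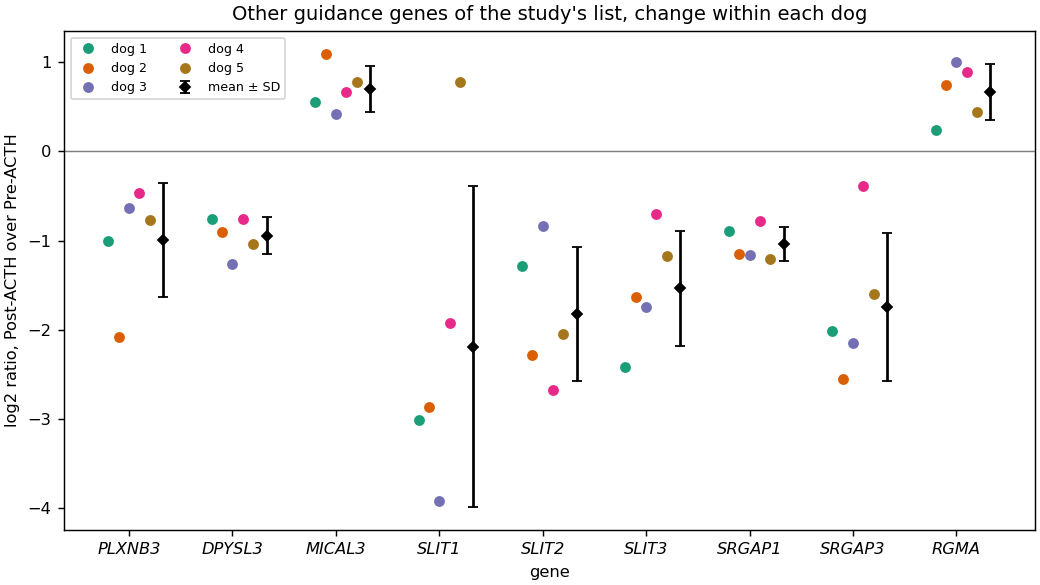
Log2 ratio of Post-ACTH over Pre-ACTH within each dog (y axis) for the 9 other guidance genes that had a symbol (x axis), with the mean ± SD over 5 dogs as black diamonds. MICAL3 and RGMA lie above 0 in all dogs, and SLIT1 ranges from -3.92 in dog 3 to 0.78 in dog 5.

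Whole pieces of fat hold adipocytes, stromal cells, vessels and immune cells, and in such bulk samples fewer cells of a type and less RNA per cell cannot be told apart. Of 86 marker genes of these cells 16 had a symbol, all from the study's list. The 7 fibroblast and progenitor markers (DCN, LUM, CD34, COL1A1, COL1A2, COL3A1 and PI16) were all lower, and their summed level was 1435 to 3254 CPM (TMM-scaled reads on a scale common to all libraries) in Pre-ACTH and 476 to 817 in Post-ACTH, without overlap. The mast cell markers CPA3 and MS4A2 summed to 1.27 to 3.26 before and 0 to 0.25 after treatment. Both had few reads: CPA3 averaged 15.9 normalized counts before and 0.39 after, and MS4A2 14.5 and 1.39. The size of their difference is therefore poorly measured. The macrophage markers CSF1R and C1QB summed to 66.0 to 146 and 39.4 to 96.8, but they went opposite ways: CSF1R was lower in 4 of 5 dogs (log2 fold change -0.75) and C1QB higher in all 5 (1.00), and the sum was higher after treatment in dog 5. The mural cell markers PDGFRB, MYH11 and NOTCH3 summed to 237 to 297 and 173 to 216. PDGFRB (-0.74) was lower in all 5 dogs without overlap of the groups. NOTCH3 (-0.67) was lower in 4 of 5 dogs and MYH11 (0.89) higher in 4 of 5. LIPE, the hormone-sensitive lipase of adipocytes, was at 1513 to 1935 before and 2138 to 2592 after, and CKM, the muscle creatine kinase, at 2.77 to 16.4 and 43.3 to 142. The listed endothelial markers, which would bear on EFNB2, and the listed lymphocyte markers, which would bear on SEMA4A, had no symbol here. Nor did defining adipocyte genes such as ADIPOQ and PLIN1, so the tissue label was not checked against any of these. Some genes outside the lists had a symbol, again from the study's list. Among them were PCDH12, of endothelial cells (log2 fold change -1.78), and MHC class II genes of antigen-presenting cells. The latter were DLA-DQA1 (-2.48), DLA-DQB1 (-2.36), DLA DRA (-1.72), HLA-DRB1 (-1.52) and DLA-DMA (-0.94). The part of these cells in the members' differences was not tested. In Pre-ACTH the summed fibroblast and progenitor markers were highest in dog 1 and SEMA3C in dog 3, and dogs 4 and 5 were the lowest of the 5 for both. Log2 ratios of this marker sum were -1.99, -2.07, -1.50, -1.67 and -1.25 in dogs 1 to 5. Those of SEMA3C were -1.51, -1.61, -2.79, -0.56 and -1.25, and the relation of SEMA3C to the marker sum was not tested.

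The response of males and females was compared by the interaction of treatment and sex in the fit across all genes, a measure that did not choose the members. No member was called at FDR under 0.01, and 0.00% of all genes tested were (edgeR quasi-likelihood test, 3 males and 2 females), while 3.20% had an unadjusted p under 0.05. DESeq2 called 5 genes, none of them a member, and limma-voom called 0. SEMA3C was the 1 member with an unadjusted p under 0.05 in the edgeR test: its log2 ratio averaged -1.11 in males and -2.20 in females, a fitted difference of 1.08 (SE 0.42, adjusted p = 1). Both females had lower ratios than all 3 males, although dog 2, a female, at -1.61 and dog 1, a male, at -1.51 were close, and without dog 3 the difference was 0.51 (edgeR, adjusted p = 1). The adjusted p of SEMA3C lay between 0.401 and 1 under the alternatives tried. For the other 8 members the fitted difference ran from -0.71 for SEMA5B to 1.31 for EPHB2, with SEs of 1.14 and 0.71. The test had little precision for the low-count members, and SEMA5A, with 0.14 (SE 0.18), was the most precisely measured.

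**Figure D5:**
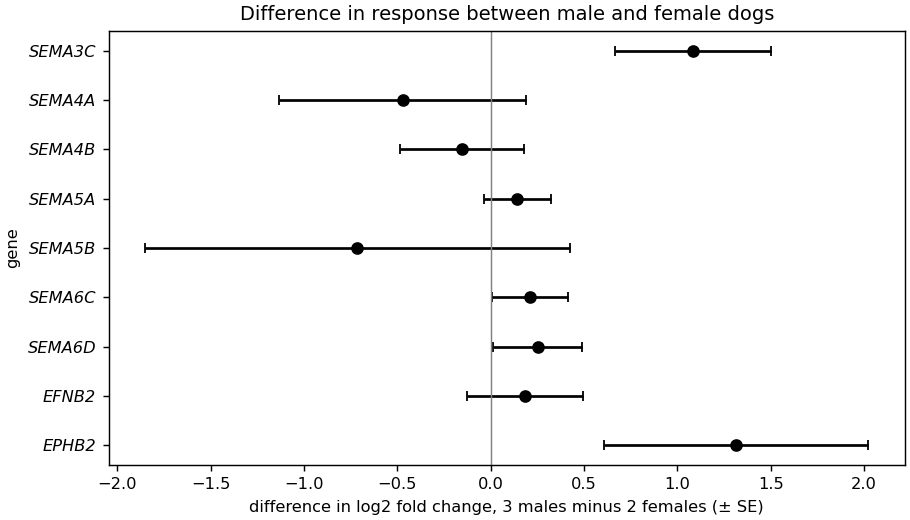
Fitted difference in log2 fold change between 3 male and 2 female dogs (x axis, points with ± SE) for each member (y axis). SEMA3C and EPHB2 have the largest positive differences, 1.08 and 1.31, the bar of SEMA5B is the widest, and no difference passed the adjustment over all genes.

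Genes whose pattern over the 10 samples was most like that of each member were ranked by Pearson's r of log2 CPM, among the 1070 other genes with a symbol. These share the libraries and were all on the study's list, so a shift between the groups is part of every r, and the values are descriptions. For SEMA3C they were WISP2, a secreted matricellular protein (r = 0.98), and ARVCF, a protein of the catenin family (0.98). For SEMA4B they were SLC25A6, a mitochondrial ADP/ATP carrier (0.93), and GLUL, glutamine synthetase (0.92). SEMA6D was closest to FAP, a serine protease of fibroblasts (0.95), and ARHGEF4 (0.94), and SEMA6C to PACSIN1 and the angiogenesis inhibitor VASH1, at 0.92 and 0.91. EFNB2 was closest to ARHGDIB and PCDH12, a protocadherin of endothelial cells (0.98 each), and EPHB2 to RGS22 and the growth factor FGF1 (0.97 each). SEMA4A was closest to SAMD9L (0.97) and TMEM150C (0.96), SEMA5A to SMARCA1 (0.96) and BCAR3 (0.92), and SEMA5B to TDRD7 (0.99) and ANGPTL1 (0.98).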

How the data were processed

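RNA-seq counts were analysed for VAT of 5 dogs sampled Pre-ACTH and Post-ACTH. The authors trimmed the reads, used STAR for alignment to CanFam3.1 and featureCounts for counting by Ensembl gene, and the deposited values are raw counts, 1 table per library. Versions, annotation release, strand setting and the treatment of reads shared by genes are not given in the sources used here, so overlapping or antisense genes cannot be told apart. Labels and paper differ in the library kit and read length.

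From the counts, edgeR 4.0.16 in R 4.3.3 (TMM, glmQLFit, glmQLFTest) was fitted to 13577 genes reaching 10 reads in 1 sample or more. The dog, from the animal IDs, was a block, as in the study's methods, and deviations of same-dog libraries from their group means correlated at 0.077 to 0.41. In dog 4 the value, 0.077, was below the highest one with another dog's Post-ACTH library, 0.17. For every other dog its own value was the higher one, in dog 1 with 0.27 against 0.21. The Benjamini-Hochberg adjustment was applied with FDR under 0.01. Normalized counts were scaled to the mean library size, and ratios of single dogs came from log2 CPM (prior count 2). The fit was tested on simulated data. P-values weigh a change within dogs, or its difference between the sexes, against how much such changes varied between these 5 dogs. The fit moderates that spread for each gene with the spread of all genes tested.

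Symbols came from the study's supplementary list, which names 1079 of 1190 genes. Its fold changes and p-values were not used. A RefSeq table of another assembly gave no Ensembl identifiers. No sequences are shown.

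The members and gene lists were chosen with earlier results of these data known. The genes named were the members, their partners, called genes of the guidance lists and the 2 genes most alike to each member. Uncalled guidance genes, markers and the MHC class II genes were named after their values were seen. Alternatives were DESeq2 1.42.0, limma-voom (limma 3.58.1), RLE, total-count and upper-quartile scaling, other low-count filters, no block, another threshold, a prior count of 0.5 and leaving out each dog.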

Additional observations from a re-analysis of the deposited data

Results flagged for a closer look

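Among 27 sets of 5 values examined (each member's Pre-ACTH levels, Post-ACTH levels and log2 ratios), 1 held a value far from the others, and chance gives about 1 in 20. The Pre-ACTH level of SEMA6D in dog 2 was 442 normalized counts, while the other 4 dogs lay between 521 and 547. Dog 2 was also the lowest for SEMA6D after treatment.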

How the results depend on the processing

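The log2 fold changes of the 9 members kept their sign under all 13 alternatives and moved by less than 1 SD between dogs, for example from -1.78 to -1.23 for SEMA3C and from 0.53 to 0.80 for SEMA4B. The difference between SEMA3C and the membrane median stayed between -1.19 and -0.62 when single dogs were left out. Counts of called genes did move. Members called numbered 1 in the fit with the dog as a block and 1 without the replicate block, but 3 without a low-count filter, 8 with DESeq2, 9 at FDR under 0.05 and 0 when any single dog was left out. The other guidance genes called numbered 5, but 9 with DESeq2, 8 at FDR under 0.05, and between 0 and 4 without single dogs, and 6 without the block. For the sex difference DESeq2 called 5 genes in place of 0. Over the whole table the fit called 268 genes, 1174 with DESeq2, 438 without a filter, 318 without dog 1, and 1, 12, 117 and 23 without dogs 2, 3, 4 and 5. The cause was not tested. Leaving out single dogs turned the sign of 3 sex differences, none of them called: SEMA4B ran from -0.72 to 0.40, SEMA5B from -1.96 to 0.033 and EFNB2 from -0.0062 to 0.41. Low read numbers limit SEMA4A, SEMA5B and EPHB2.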
